A study of Mus musculus with 27 samples.

Results

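Cardiotoxin (CTX), a snake venom peptide that breaks open the membrane of muscle fibres, was used in this series to injure mouse hindlimb muscle. The comparison described here is the first step of that model, injured muscle at day 1 (D1) against control muscle, both from wild-type (WT) mice. The 2 groups hold 3 libraries each, 6 of the 27 libraries in the series, and each library was placed in its group by its label. The other libraries come from later days after injury and from Gsdme knockout mice. Of 55677 gene entries in the table of these 6 libraries, 13041 reached a level of 1 TPM in at least 3 libraries and were tested, where TPM is transcript abundance scaled by transcript length and by the total of the library. The mice were male C57BL/6J, and no age is given. The injured group is labelled WT, CTX and Day1, and the control group is labelled WT and control, with no treatment named. No allele or agent other than CTX is given for either group. The study's methods name the injured muscle as the gastrocnemius and the control as the contralateral muscle of injured mice, whereas the design text places the injection in the thigh and calls the control unloaded. The methods also describe a sham group injected with saline, and no label says whether the control muscle here was injected. A contralateral muscle belongs to an animal that carries an injury, so what all groups share includes any response of the whole animal if that description holds. The methods describe 2 sequencing batches, the first with injured and contralateral muscle at 24 h and the second with the WT and knockout time course. The 3 WT D1 libraries are also part of the time course table, and no label gives the batch of any library, so injury and batch cannot be told apart. The labels do not tie libraries to separate animals (the design text calls them biological triplicates), so the p-values measure the spread between these samples.

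Skeletal muscle fibres are long multinucleate cells that contract by sliding actin and myosin filaments and that draw energy from glycolysis or from mitochondrial oxidation, depending on the fibre type. When a toxin lyses the fibres, their contents reach the extracellular space, resident macrophages and stromal cells release chemokines, and neutrophils and then monocytes enter the tissue to clear debris. Satellite cells, the muscle stem cells, leave quiescence during the same period and later divide and fuse into new fibres. RNA was measured in whole muscle, so a lower level can come from fewer cells of a type or from less of the RNA per cell, and these cannot be told apart.

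In these libraries 7229 of 13041 tested genes were called higher on D1 and 736 lower (limma on log2(TPM + 1), Benjamini-Hochberg adjusted p under 0.05), that is 55.4% and 5.64% of those tested. TPM values are shares of a fixed total, and the median log2 difference over all tested genes was 0.66 in place of 0. The 100 genes with the highest control level took 64.6% of TPM in control muscle and 44.8% on D1, and 85 of them had a difference below 0, 37 of them called lower and 10 called higher. Rescaling by the median of ratios moved the median difference to 0.001 and gave 2753 higher and 2794 lower calls, and quantile normalization gave 2553 and 2673, with a median of -0.050. Leaving out the 50 most abundant entries gave 4236 higher and 1650 lower calls, and leaving out the mitochondrial entries gave 6739 and 859. Higher calls made up 90.8% of calls with TPM as deposited, against 49.6%, 48.9%, 72% and 88.7% under these 4 rescalings. A total of 2322 genes (17.8%) were higher and 718 (5.51%) lower under every one of the 5 scalings, and in the following a gene is said to have risen or fallen where its call held under all of them (a scaling that removes a gene is not counted against it). Genes called with TPM as deposited but not under every scaling are described as called as deposited only. All 4 rescalings lowered the median difference, and a lower call mostly held under them (718 of 736, against 2322 of 7229 higher calls). Holding under every scaling is therefore a weak check of a lower call. Not called refers to TPM as deposited. With 2794 lower calls under median-of-ratios scaling, a gene not called here may be called lower under a rescaling. Differences are given on the log2(TPM + 1) scale with TPM as deposited, which understates the change of genes at low levels. TPM is a level per transcript length, so levels may be set beside each other across genes. The 3 values given for a group are those of replicates 1, 2 and 3 in that order. The D1 and control values did not overlap in 9292 of the 13041 tested genes (71.3%), so a lack of overlap sets no gene apart.

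**Figure D1:**
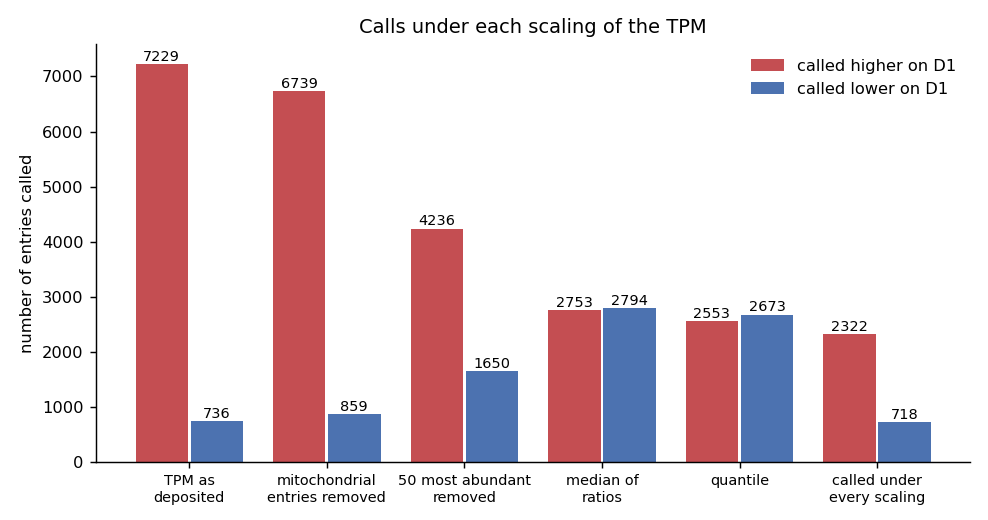
Number of genes (y axis) called higher or lower on D1 under each of the 5 scalings of TPM (x axis), with 13041 genes tested as deposited. Higher calls exceed lower calls 7229 to 736 as deposited, and the counts are nearly equal under median-of-ratios scaling (2753 and 2794) and quantile normalization (2553 and 2673).

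The libraries separated by group. Pearson's r of log2(TPM + 1) across genes was 0.983 to 0.987 within control muscle and 0.925 to 0.972 within D1 muscle, and the first principal component held 86.0% of the variance, with control muscle at -64.21, -70.03 and -63.46 and D1 muscle at 64.65, 107.15 and 25.90. D1 replicate 2 lay farthest from control muscle (r 0.805 to 0.812) and D1 replicate 3 nearest (0.923 to 0.929). Genes at 1 TPM or more numbered 11785 to 12033 in control libraries and 13085 to 13895 on D1, and mitochondrial entries took 12.2% to 14.2% and 6.40% to 11.3% of TPM. The lower count moved by over 1.5 times with single libraries, with 361 lower calls without control replicate 1, 401 without control replicate 3 and 1161 without D1 replicate 3, against 736 with all 6. Acta1, the skeletal muscle actin, checked the tissue label, with 36409, 32766 and 36528 TPM in control muscle and 31721, 22729 and 42373 TPM on D1.

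Chemokines, a matricellular protein, a metal-binding protein and an arginine-degrading enzyme were among the largest higher differences, and slow-fibre sarcomere genes among the largest lower ones. By the rule of at least 10 TPM in a group, the 10 largest higher differences among named entries belonged to Ccl7, Ccl2, Spp1, Mt2, Arg1 and 5 short non-coding or duplicate entries (Gm42845, Gm26377, Gm10060, Rny1 and a 105-base second entry of Ddit3). The 10 largest lower differences belonged to the slow-fibre genes Myl2, Myh7, Myl3 and Tnnc1, to Cyp2e1, and to Gm37421, Rps3a2, Bsn, Tpm3-rs7 and Gm49015. Spp1 encodes osteopontin, a secreted matrix and cytokine-like protein (chr5:104435118-104441050, plus strand in mm10), and it was at 8.75, 4.59 and 5.23 TPM in control muscle and 859, 873 and 133 TPM on D1 (log2 difference 6.06, SE 0.66, adjusted p = 0.00108). Arg1, arginase, lies at chr10:24915221-24927484, minus strand and was at 0.03, 0.37 and 0.08 TPM in control muscle and 111, 142 and 19.1 TPM on D1 (log2 difference 5.9, SE 0.65, adjusted p = 0.00109). All 3 D1 values of both genes exceeded all control values, with D1 replicate 3 lowest. Of these 20 leading entries, 8 also set control muscle apart from injured muscle when all days and both genotypes were pooled, in 1 of the following ways. The separately quantified table of 24 injured libraries holds WT and Gsdme knockout muscle. It includes the 3 WT D1 libraries compared here, so it is no independent set. In this table Bsn, Rps3a2 and Tpm3-rs7 never exceeded 0.61, 0.61 and 0.55 TPM, whereas control muscle held 17.65 to 21.21, 44.03 to 53.45 and 13.52 to 15.33 TPM. The reverse held for 9 entries that were below 1 TPM in all controls and had a median of at least 10 TPM over the 24 libraries, 6 of them 105 to 112 bases long and at 0 in every control library (the second Ddit3 entry, Gm10060, Gm26377, Gm42845, Rny1 and an unnamed one) and the other 3 Cdk1, Gm49339 and Pycard. Single libraries went against this, since each of the 6 short entries was at 0 TPM in at least 1 of the 24 injured libraries. The second Ddit3 entry, Gm42845 and Rny1 were at 0 TPM in at least 1 WT library at day 4. At day 7 this held for Rny1 and the unnamed entry. Whether batch or library preparation takes part in these 12 differences was not tested. In WT muscle at day 14, Ccl2 was at 0.62 to 1.34 TPM, Arg1 at 0.07 to 0.22 TPM and Cdk1 at 0.19 to 1.46 TPM, near their control levels.

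Genes of cells that enter injured tissue were higher on D1. In the list of recruited monocyte and macrophage genes, 28 of the 28 listed genes passed the filter, 27 were called higher and 0 lower (26 and 0 under every scaling), and the median log2 difference was 4.07. Of those tested, 7 passed the filter only through D1 libraries. Beside this, 55.4% of all tested genes were called higher, 17.8% under every scaling, and their median log2 difference was 0.66. Their summed level was 347.9, 294.9 and 288.6 TPM in control muscle and 5359, 8054 and 1640 TPM on D1. Ly6c2, a surface protein of inflammatory monocytes, was at 1.52, 2.27 and 2 TPM in control muscle and 193, 386 and 51.6 TPM on D1 (log2 difference 5.76, SE 0.61, adjusted p = 0.00101). Chil3, a chitinase-like secreted protein, was at 0.11, 0.05 and 0 TPM in control muscle and 68.8, 117 and 17.2 TPM on D1 (log2 difference 5.66, SE 0.58, adjusted p = 0.00101). Both genes rose, and their levels were highest in D1 replicate 2 and lowest in D1 replicate 3. Nos2, inducible nitric oxide synthase, was the member not called, at 1.19, 1.37 and 1.23 TPM in control muscle and 2.05, 2.83 and 1.27 TPM on D1 (log2 difference 0.40, SE 0.23, adjusted p = 0.166). In the neutrophil list, 16 of the 30 listed genes passed the filter, 15 were called higher and 0 lower (13 and 0 under every scaling), and the median log2 difference was 2.93. Of those tested, 10 passed through D1 libraries only. S100a8 and S100a9 form calprotectin, an abundant neutrophil protein, and S100a9 was at 1.56, 0.51 and 1.24 TPM in control muscle and 132, 308 and 24.7 TPM on D1 (log2 difference 5.63, SE 0.76, adjusted p = 0.00163). S100a8 was at 0.72, 0.43 and 0.27 TPM in control muscle and 84.8, 205 and 18.1 TPM on D1 (log2 difference 5.58, SE 0.72, adjusted p = 0.00147). Both were below 2 TPM in control muscle, with D1 replicate 3 lowest on D1. Slfn4 was at 0.14, 0.06 and 0.14 TPM in control muscle and 40.9, 101 and 18.9 TPM on D1 (log2 difference 5.31, SE 0.51, adjusted p = 0.000782). Lcn2, an iron-siderophore binding protein, was at 1.39, 1.29 and 1.99 TPM in control muscle and 64.5, 57.3 and 155 TPM on D1 (log2 difference 5.05, SE 0.36, adjusted p = 0.000192). These 4 genes rose, with no overlap between groups, as in 71.3% of all tested genes. Lcn2 was highest in D1 replicate 3, where S100a8, S100a9 and Slfn4 were lowest, and it is also in the list of metallothionein, haem and iron genes. Wfdc21 was not called, with 0.74, 1.28 and 1.93 TPM in control muscle and 0.44, 0.83 and 2.44 TPM on D1. The marker Ly6g reached at most 0.15 TPM, and the primary granule genes Elane and Mpo at most 0.09 and 0.1 TPM, in any of the 6 libraries. Macrophages that live in uninjured muscle have their own markers, and of that list 13 of 19 tested members were called higher and 0 lower (8 and 0 under every scaling, median 1.02). Mrc1, the mannose receptor, was at 4.21, 4.56 and 5.75 TPM in control muscle and 25.9, 47.2 and 17.7 TPM on D1 (log2 difference 2.32, SE 0.33, adjusted p = 0.00181). Stab1, a scavenger receptor, was at 14.9, 12.9 and 13.8 TPM in control muscle and 81.6, 131 and 43.3 TPM on D1 (log2 difference 2.4, SE 0.35, adjusted p = 0.00194). Both rose, whereas the haemoglobin scavenger receptor Cd163 (6.06, 7.26 and 10.2 TPM in control muscle and 12.1, 13.5 and 10.2 TPM on D1, adjusted p = 0.0578) and the transcription factor Maf (39.6, 37.2 and 40.2 TPM in control muscle and 31.5, 48.4 and 53.7 TPM on D1, adjusted p = 0.547) were not called. Nos2 and Cd163 were called when D1 replicate 3 was left out (adjusted p = 0.0271 and 0.0204). Cd163 was called when control replicate 3 was left out (adjusted p = 0.0447).

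**Figure D2:**
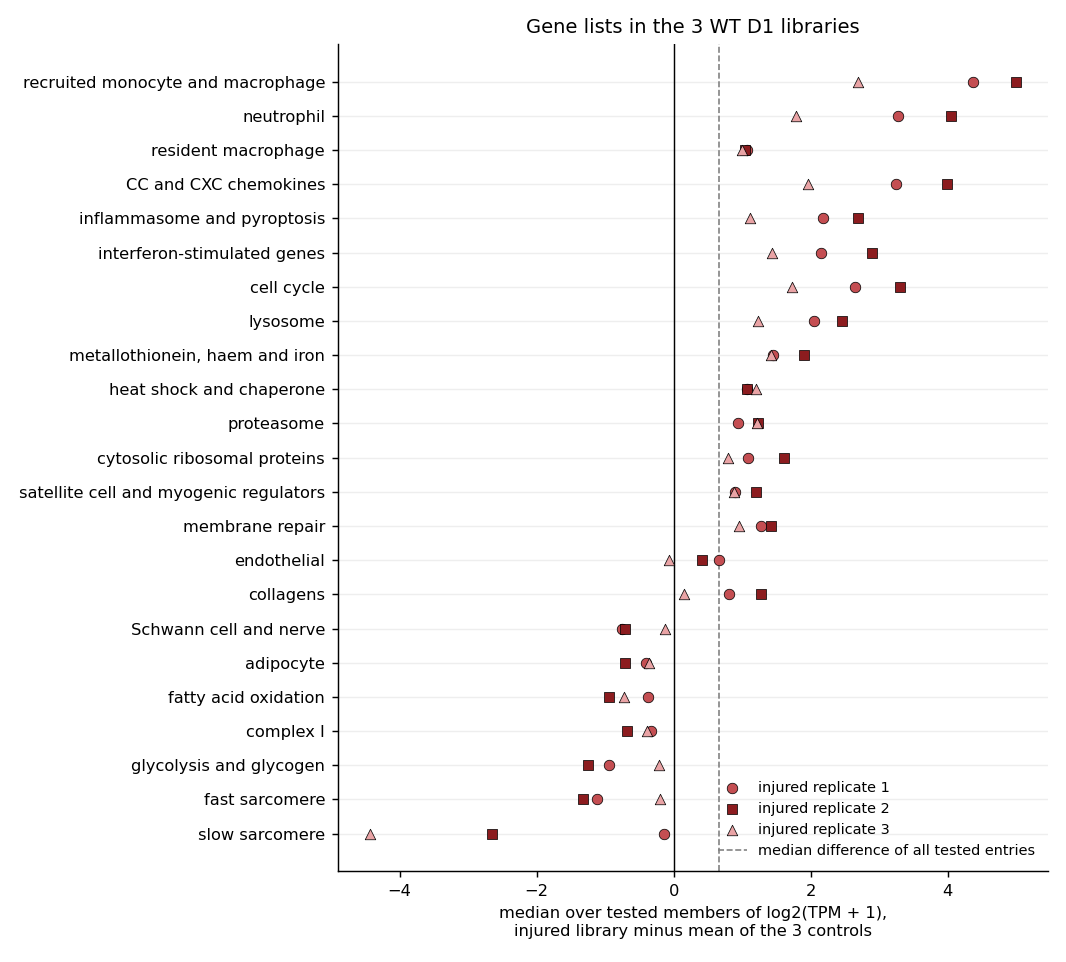
Median over the tested members of each of 23 gene lists (y axis) of log2(TPM + 1) in each D1 library minus the mean of the 3 control libraries (x axis), with 1 point per D1 library (circle, square and triangle for replicates 1, 2 and 3) and a dashed line at the median of all tested genes. Recruited monocyte and macrophage genes lie highest (4.38, 5 and 2.69), D1 replicate 3 is lowest for most immune lists, and slow sarcomere genes spread from -0.13 to -4.43.

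Chemokines are secreted proteins that guide leukocytes through tissue, and Ccl7 and Ccl2 had the largest higher differences among the named entries over 150 bases long. In this list 24 of the 31 listed genes passed the filter, 19 were called higher and 1 lower (15 and 1 under every scaling), and the median log2 difference was 3.01. Of those tested, 7 passed only through D1 libraries. The 4 monocyte chemoattractants of this list lie close together on chromosome 11 in mm10, Ccl2 at chr11:82035571-82037453, plus strand, Ccl7 at chr11:82045712-82047525, plus strand, Ccl12 at chr11:82101845-82103400, plus strand and Ccl8 at chr11:82115185-82116799, plus strand, with the eosinophil chemoattractant Ccl11 (chr11:82057823-82062955, plus strand) between Ccl7 and Ccl12. Ccl7 was at 1, 0.9 and 0.3 TPM in control muscle and 241, 626 and 105 TPM on D1 (log2 difference 7.21, SE 0.55, adjusted p = 0.000326). Ccl2 was at 2.5, 1.39 and 1.96 TPM in control muscle and 336, 744 and 106 TPM on D1 (log2 difference 6.68, SE 0.59, adjusted p = 0.000615). Each D1 value of these genes exceeded every control value. Ccl12 was at 0.24, 0.26 and 0.35 TPM in control muscle and 56, 125 and 24.4 TPM on D1 (log2 difference 5.47, SE 0.49, adjusted p = 0.000639). Ccl8 was at 4.97, 4.88 and 2.9 TPM in control muscle and 67.1, 104 and 40.9 TPM on D1 (log2 difference 3.7, SE 0.34, adjusted p = 0.000639). All 4 rose and none overlapped between groups. Ccl11, in the midst of them, was at 27.9, 26.8 and 24 TPM in control muscle and 23.8, 26.4 and 30 TPM on D1, and the groups overlapped (log2 difference 0.023, SE 0.17, adjusted p = 0.911). Cxcl5, a ligand of the neutrophil receptor Cxcr2, was listed at 0 in every control library and at 28.8, 48.4 and 5.01 TPM on D1 (log2 difference 4.37, SE 0.66, adjusted p = 0.00212). Cxcr2 itself was at 0.01, 0.1 and 0.04 TPM in control muscle and 7.77, 16.7 and 1.72 TPM on D1 (log2 difference 2.84, SE 0.57, adjusted p = 0.00469). Ccl21a, a chemokine of lymphatic vessels, fell, with 40.9, 37.1 and 41.9 TPM in control muscle and 19.3, 28.1 and 29.9 TPM on D1 (log2 difference -0.64, SE 0.20, adjusted p = 0.0234). Of the chemokine receptors, 6 of 10 tested members were called higher and 1 lower (4 and 1 under every scaling, median 2.08, 5 tested through D1 libraries only). Ccr2, the receptor of Ccl2 and Ccl7, was at 0.43, 0.8 and 0.52 TPM in control muscle and 26.7, 62.3 and 8.79 TPM on D1 (log2 difference 4.03, SE 0.57, adjusted p = 0.00181). Ccr1 was at 0.35, 0.43 and 0.25 TPM in control muscle and 27.3, 48.9 and 6.69 TPM on D1 (log2 difference 4.05, SE 0.58, adjusted p = 0.0019). The non-signalling receptors Ackr3 (log2 difference 0.38, SE 0.25, adjusted p = 0.22) and Ackr1 (log2 difference 0.18, SE 0.24, adjusted p = 0.517) were not called. NF-kB, a transcription factor that many inflammatory genes share, has a consensus sequence that was searched on both strands of the 250 bases before each gene's start in RefSeq promoters (GRCm38.p6). It occurred in 10 of the 29 called chemokine and NF-kB genes that had a promoter entry (34.5%, of 39 called) and in 4.46% of all 27025 promoters. Stretches of 2 of these promoters follow, each 5′ to 3′ on the strand of its gene, with the match in capitals, which begins 35 bases before the start of Ccl9 and 159 before that of Cxcl10, and they are shown because both chemokines rose.
Ccl9 chr11:83578637-83578716 (minus strand): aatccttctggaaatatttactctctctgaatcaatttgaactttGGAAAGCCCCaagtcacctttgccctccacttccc
Cxcl10 chr5:92348994-92349093 (minus strand): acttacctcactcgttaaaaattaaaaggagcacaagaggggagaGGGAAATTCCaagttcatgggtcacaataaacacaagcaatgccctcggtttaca
Ccl9 was at 20.6, 16.1 and 11.5 TPM in control muscle and 188, 316 and 81.8 TPM on D1 (log2 difference 3.35, SE 0.44, adjusted p = 0.00154). Cxcl10, an interferon-responsive chemokine, was at 0.58, 1.01 and 0.56 TPM in control muscle and 9.92, 22.6 and 8.48 TPM on D1 (log2 difference 2.98, SE 0.35, adjusted p = 0.00125). A match describes letters and is no evidence of binding. The lists were chosen by known gene roles, and motifs were counted in called members only. This share and the motif shares given below therefore say nothing on the change on D1. Ccl21a was not called without control replicate 1, 2 or 3 or D1 replicate 1 (adjusted p = 0.0529 to 0.0835). Ackr3 was called when D1 replicate 3 was left out (adjusted p = 0.0263).

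**Figure D3:**
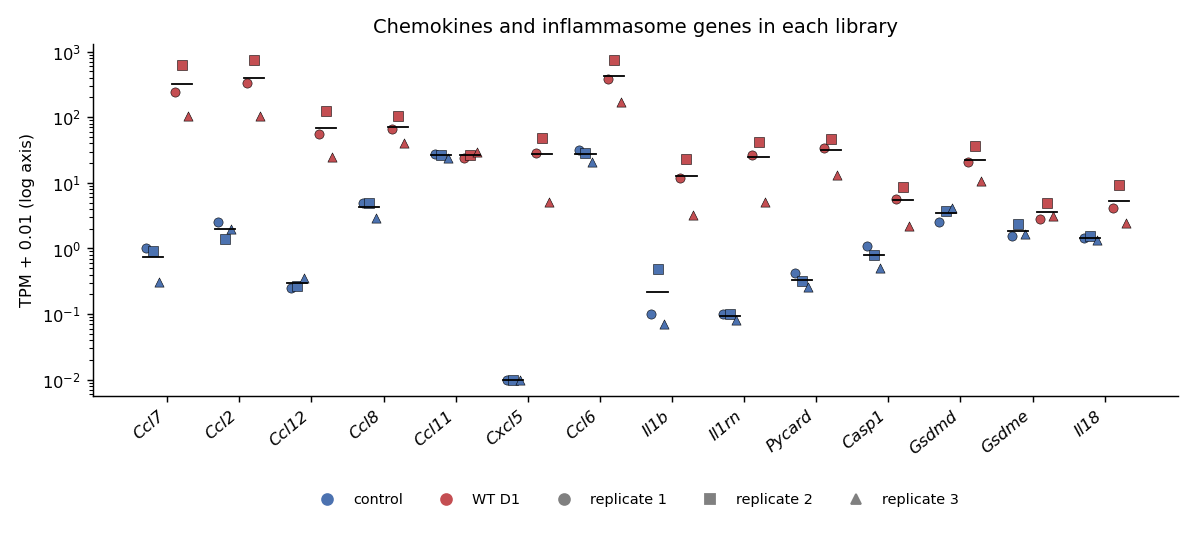
Level of 14 chemokine, interleukin-1 and pyroptosis genes (x axis) in TPM + 0.01 on a log axis (y axis), with control libraries in blue, D1 libraries in red, replicates 1, 2 and 3 as circles, squares and triangles, and black bars for group means. Ccl7, Ccl2 and Ccl12 separate by more than a factor of 10 between groups, whereas Ccl11 overlaps and Gsdme is at 1.55 to 2.34 TPM against 2.76 to 4.86 TPM. Ccl6, which is no named gene of the rule, was added after its values were seen.

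Interleukin-1 signalling drives early inflammation, and both its ligand and its inhibitors were higher on D1. In the family and its receptors, 8 of 9 tested members were called higher and 0 lower (5 and 0 under every scaling, median 1.5, 4 tested through D1 libraries only). Il1b, the secreted ligand interleukin-1 beta (chr2:129364570-129371139, minus strand), was at 0.09, 0.48 and 0.06 TPM in control muscle and 11.8, 23 and 3.22 TPM on D1 (log2 difference 3.19, SE 0.55, adjusted p = 0.00288). Il1rn, the receptor antagonist (chr2:24336853-24351494, plus strand), was at 0.09, 0.09 and 0.07 TPM in control muscle and 26.7, 41.3 and 5.16 TPM on D1 (log2 difference 4.16, SE 0.61, adjusted p = 0.00204). Il1r2, a decoy receptor, was at 0.66, 0.56 and 0.99 TPM in control muscle and 11.4, 24.4 and 2.4 TPM on D1 (log2 difference 2.57, SE 0.62, adjusted p = 0.00861). All 3 genes rose, and on D1 the antagonist was above the ligand in each library. Il1rl1, the receptor of interleukin-33, rose from 0.34, 0.3 and 0.48 TPM to 10.8, 16.7 and 2.32 TPM (log2 difference 2.69, SE 0.54, adjusted p = 0.00448), while Il33 itself was at 3.96, 4.86 and 4.1 TPM in control muscle and 17.7, 18.9 and 3.7 TPM on D1 and was not called (log2 difference 1.19, SE 0.50, adjusted p = 0.0693). In the interleukin-6 family, 7 of 11 tested members were called higher and 2 lower (4 and 2 under every scaling, median 0.63, 1 tested through D1 libraries only). The median of this list is -0.15 under median-of-ratios scaling. Socs3, the feedback inhibitor of this pathway, was at 1.78, 1.83 and 2.13 TPM in control muscle and 41.1, 52.3 and 12.6 TPM on D1 (log2 difference 3.42, SE 0.46, adjusted p = 0.00155), and its transcription factor Stat3 at 23.6, 17.2 and 20.9 TPM in control muscle and 76, 72.9 and 48.4 TPM on D1 (log2 difference 1.61, SE 0.22, adjusted p = 0.00164). Cntfr (36.6, 20.3 and 13.8 TPM in control muscle and 8.91, 6.86 and 9.32 TPM on D1, log2 difference -1.29) and Lifr (12.8, 8.61 and 10 TPM in control muscle and 7.55, 6.32 and 5.77 TPM on D1, log2 difference -0.60), receptor subunits of ciliary neurotrophic factor and leukaemia inhibitory factor, fell (adjusted p = 0.0102 and 0.0392). Il6 was at 0.05, 0.28 and 0.08 TPM in control muscle and 2.31, 2.62 and 0.18 TPM on D1 and did not pass the filter. Of the tumour necrosis factor and NF-kB genes, 19 of 21 tested members were called higher and 0 lower (15 and 0 under every scaling, median 1.74, 5 tested through D1 libraries only). Tnfrsf1b, the second tumour necrosis factor receptor, was at 3.98, 2.94 and 2.93 TPM in control muscle and 31.4, 48.9 and 12.1 TPM on D1 (log2 difference 2.7, SE 0.43, adjusted p = 0.00244), and the NF-kB subunit Nfkb2 at 6.54, 6.34 and 6.76 TPM in control muscle and 30.6, 41 and 26.8 TPM on D1 (log2 difference 2.14, SE 0.20, adjusted p = 0.000724). Both rose, as did Bcl3, a nuclear cofactor of NF-kB, with 1.32, 1.62 and 1.23 TPM in control muscle and 20, 25.6 and 7.31 TPM on D1. Sod2, the mitochondrial superoxide dismutase, was not called, at 279, 184 and 276 TPM in control muscle and 215, 181 and 206 TPM on D1 (log2 difference -0.27, SE 0.20, adjusted p = 0.264). Of receptors that sense microbial or damage products, 20 of 23 tested members were called higher and 0 lower (14 and 0 under every scaling, median 2.06, 13 tested through D1 libraries only). The lectin Clec7a, which binds beta-glucan, was at 0.66, 0.67 and 0.4 TPM in control muscle and 20.3, 34.7 and 5.5 TPM on D1 (log2 difference 3.44, SE 0.54, adjusted p = 0.00229). Tlr13, an endosomal sensor of ribosomal RNA, was at 0.31, 0.15 and 0.25 TPM in control muscle and 15.3, 30.3 and 4.09 TPM on D1 (log2 difference 3.48, SE 0.56, adjusted p = 0.00247). P2ry2, a receptor of extracellular ATP (log2 difference 0.46, SE 0.22, adjusted p = 0.0988), and Tlr5, the flagellin receptor (log2 difference 0.53, SE 0.25, adjusted p = 0.0946), were not called. Lifr was not called without control replicate 1 or 3 or D1 replicate 1, 2 or 3 (adjusted p = 0.0536 to 0.173). Il33, P2ry2 and Tlr5 were called when D1 replicate 3 was left out (adjusted p = 4.28e-06, 0.0353 and 0.0204).

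Pyroptosis is cell death through pores of gasdermin proteins in the plasma membrane, which caspases open by cleavage, and Gsdme, the gene knocked out elsewhere in this series, encodes one of them. Gsdme (chr6:50188888-50263862, minus strand) was at 1.55, 2.34 and 1.65 TPM in control muscle and 2.76, 4.86 and 3.16 TPM on D1. The 3 D1 values lay above the 3 control values, at a low level in both groups. The call was made with TPM as deposited only (log2 difference 0.67, SE 0.24, adjusted p = 0.0388), and the difference was 0.10 under median-of-ratios scaling and -0.068 under quantile normalization (adjusted p = 0.709 and 0.804). Without control replicate 1, 2 or 3 or D1 replicate 2 the call was lost, and the exact permutation test over the 6 libraries gave p = 0.1 (two-sided), the smallest that 3 against 3 allows. Gsdmd (chr15:75862327-75867408, plus strand), the gasdermin that inflammatory caspases cleave, was at 2.54, 3.75 and 4.11 TPM in control muscle and 20.7, 35.9 and 10.8 TPM on D1 (log2 difference 2.26, SE 0.39, adjusted p = 0.00284). It rose under every scaling, and its D1 level exceeded that of Gsdme in each D1 library. Gsdma, Gsdma2, Gsdma3, Gsdmc, Gsdmc2, Gsdmc3 and Gsdmc4 were at 0.23 TPM or less in all 6 libraries and were not tested. Over the inflammasome and pyroptosis list, 14 of 14 tested members were called higher and 0 lower (11 and 0 under every scaling, median 2.08, 5 tested through D1 libraries only). Pycard, the adaptor that joins sensors to caspase-1, was at 0.42, 0.31 and 0.25 TPM in control muscle and 34.2, 46.3 and 13.3 TPM on D1 (log2 difference 4.44, SE 0.40, adjusted p = 0.000639). It is one of the 9 entries below 1 TPM in all controls with a median of at least 10 TPM over the 24 injured libraries. Casp1, which matures interleukin-1 beta and interleukin-18, was at 1.09, 0.79 and 0.49 TPM in control muscle and 5.74, 8.65 and 2.17 TPM on D1 (log2 difference 1.74, SE 0.39, adjusted p = 0.00639). Pycard and Casp1 both rose. Il18, the second cytokine of this pathway, was at 1.43, 1.53 and 1.35 TPM in control muscle and 4.12, 9.28 and 2.43 TPM on D1 and was called as deposited only (log2 difference 1.21, SE 0.37, adjusted p = 0.0212). The sensor Nlrp3 was at 0.07, 0.27 and 0.12 TPM in control muscle and 2.99, 5.97 and 0.88 TPM on D1 and did not pass the filter. Of genes of necroptosis and apoptosis, 23 of 24 tested members were called higher and 0 lower (15 and 0 under every scaling, median 1.67, 5 tested through D1 libraries only). Zbp1, a nucleic acid sensor of necroptosis, was at 0.44, 1.13 and 0.63 TPM in control muscle and 39, 73.6 and 18.5 TPM on D1 (log2 difference 4.5, SE 0.44, adjusted p = 0.00089). Ripk3, its kinase partner, was at 1.37, 0.55 and 1.11 TPM in control muscle and 13.6, 22.7 and 7.78 TPM on D1 (log2 difference 2.87, SE 0.36, adjusted p = 0.00142). The death receptor Fas was at 3.59, 4.68 and 5.59 TPM in control muscle and 9.01, 6.69 and 3.49 TPM on D1 and was not called (log2 difference 0.34, SE 0.32, adjusted p = 0.369). Il18 was not called without control replicate 1, 2 or 3 (adjusted p = 0.0582 to 0.0628). Fas was called when D1 replicate 3 was left out (adjusted p = 0.0253).

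Of interferon-stimulated genes, which restrict viruses and amplify nucleic acid sensing, 26 of 26 tested members were called higher and 0 lower (20 and 0 under every scaling, median 2.13, 4 tested through D1 libraries only). Isg15, a ubiquitin-like protein, was at 5.07, 6.8 and 4.57 TPM in control muscle and 68, 141 and 47.6 TPM on D1 (log2 difference 3.6, SE 0.36, adjusted p = 0.000988). Oas1a, which makes oligoadenylates on double-stranded RNA, was at 2.17, 1.84 and 1.57 TPM in control muscle and 41.9, 80.5 and 19.9 TPM on D1 (log2 difference 3.87, SE 0.43, adjusted p = 0.0011). Irf7, a transcription factor of interferon genes, was at 6.19, 6.67 and 5.23 TPM in control muscle and 80.7, 158 and 44.6 TPM on D1 (log2 difference 3.58, SE 0.39, adjusted p = 0.0011). The 3 genes rose with no overlap between groups. The interferon response element, searched as GAAA and GAAA parted by any 2 bases, occurred on either strand of the 250 bases before the start of 11 of 19 called members with a promoter entry (57.9%, of 26 called) and of 3.46% of all promoters. The promoters of Oas1a and Isg15 carry 2 and 3 overlapping matches, shown in capitals 5′ to 3′ on the strand of the gene, the first 20 and 78 bases before the start.
Oas1a chr5:120907526-120907590 (minus strand): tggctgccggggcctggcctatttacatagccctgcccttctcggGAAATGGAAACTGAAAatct
Isg15 chr4:156200830-156200941 (minus strand): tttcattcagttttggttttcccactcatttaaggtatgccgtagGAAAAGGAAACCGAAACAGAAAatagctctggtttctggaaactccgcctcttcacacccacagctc
Complement, a cascade of plasma proteins that tags debris and microbes, moved unevenly, and 12 of 22 tested members were called higher and 3 lower (10 and 3 under every scaling, median 0.81, 1 tested through D1 libraries only). Its receptors C3ar1 (1.32, 1.03 and 1.49 TPM in control muscle and 32.7, 61.2 and 10 TPM on D1) and C5ar1 (3.73, 3.5 and 4.24 TPM in control muscle and 60.1, 119 and 19.2 TPM on D1) rose, with log2 differences of 3.65 and 3.46 (SE 0.54 and 0.54, adjusted p = 0.00204 and 0.00232). Cfd, a complement protease that adipocytes secrete, fell, from 339, 421 and 302 TPM to 18, 46.4 and 250.4 TPM (log2 difference -2.53, SE 0.77, adjusted p = 0.0216). The C1 inhibitor Serping1 was not called, at 134, 107 and 124 TPM in control muscle and 125, 144 and 144 TPM on D1 (log2 difference 0.18, SE 0.16, adjusted p = 0.342). Class II molecules present peptides to T cells, and 6 of 8 tested members were called higher and 0 lower (2 and 0 under every scaling, median 1.38, 1 tested through D1 libraries only). Ctss, the protease that trims their invariant chain, was at 10.9, 8.06 and 8.76 TPM in control muscle and 362, 575 and 100.4 TPM on D1 and rose (log2 difference 4.77, SE 0.54, adjusted p = 0.0012), whereas H2-Ab1 (77.6, 60.6 and 48.3 TPM in control muscle and 206, 371 and 86.5 TPM on D1) was called as deposited only, with adjusted p = 0.017. H2-Aa was at 79.3, 59.2 and 43 TPM in control muscle and 139, 255 and 62.5 TPM on D1 and H2-Eb1 at 74.5, 63.9 and 39.1 TPM in control muscle and 133, 242 and 61.9 TPM on D1, and neither was called (adjusted p = 0.0583 and 0.0587). Of 25 lymphocyte genes 6 passed the filter, 3 of them through D1 libraries only, with 4 called higher and 1 lower (3 and 1 under every scaling), and the summed level of the list was 51.2, 65.4 and 66.6 TPM in control muscle and 77.9, 124.5 and 51.9 TPM on D1. Ccl5 (1.7, 1.54 and 1.17 TPM in control muscle and 32.5, 46.2 and 12.2 TPM on D1) and the granule protease gene Gzma (0.22, 0.37 and 0.05 TPM in control muscle and 7.84, 16.8 and 4.15 TPM on D1) rose, with log2 differences of 3.49 and 2.95 (SE 0.42 and 0.41, adjusted p = 0.00134 and 0.00172). Ighm, the heavy chain of IgM, fell from 42.5, 57 and 59.4 TPM to 11.7, 25.1 and 20.7 TPM (log2 difference -1.47, SE 0.28, adjusted p = 0.00387), and Igkc (2.49, 2.07 and 2.16 TPM in control muscle and 4.4, 2.09 and 3.48 TPM on D1) was not called. The defining markers Ms4a1 and Cd8b1 were at 0 in all controls and at most 0.15 and 0.54 TPM on D1. Of mast cell genes Hdc, which makes histamine, rose from 0.37, 0.52 and 0.49 TPM to 3.64, 5.93 and 1.57 TPM (log2 difference 1.58, SE 0.34, adjusted p = 0.00567), while the mast cell proteases Mcpt4 (9.6, 10.4 and 11.8 TPM in control muscle and 8.58, 10.3 and 7.33 TPM on D1) and Tpsb2 (10.1, 10.7 and 9.31 TPM in control muscle and 7.79, 9.65 and 11.3 TPM on D1) were not called. Cfd was not called without control replicate 1 or 2 or D1 replicate 1 or 2 (adjusted p = 0.0521 to 0.0784). H2-Ab1 was not called without control replicate 2 or 3 or D1 replicate 1 (adjusted p = 0.0547 to 0.0588). H2-Aa and H2-Eb1 were called when D1 replicate 3 was left out (adjusted p = 9.85e-05 and 0.000145). Igkc was called when D1 replicate 2 was left out (adjusted p = 0.034).

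Stress and early response genes were higher on D1. Immediate early genes encode transcription factors and regulators induced within hours of a stimulus, and 21 of 25 tested members were called higher and 0 lower (14 and 0 under every scaling, median 1.59, 3 tested through D1 libraries only). Fosl1, a Fos-family factor, was at 0, 0.16 and 0.11 TPM in control muscle and 8.36, 21.5 and 5.73 TPM on D1 (log2 difference 3.37, SE 0.41, adjusted p = 0.00132). Junb, its partner, was at 8.92, 8.06 and 6.61 TPM in control muscle and 90.4, 128 and 47.4 TPM on D1 (log2 difference 3.24, SE 0.33, adjusted p = 0.00101). Myc, a growth regulator, was at 3.28, 3.61 and 3.02 TPM in control muscle and 27.4, 44.2 and 17 TPM on D1 (log2 difference 2.73, SE 0.32, adjusted p = 0.00125). All 3 rose, whereas the nuclear receptor Nr4a1 (125, 91.9 and 67.8 TPM in control muscle and 61, 48.6 and 99.1 TPM on D1, adjusted p = 0.208) and Srf (49.5, 35.7 and 37.9 TPM in control muscle and 47.4, 48 and 57.2 TPM on D1, adjusted p = 0.161), the factor that binds the CArG box, were not called. CArG boxes were present in the promoters of 2 of 17 called members (11.8%, of 21 called, against 1.62% of all promoters), Zfp36 and Egr2. Chaperones, which refold or hold damaged proteins, were higher in part, and 18 of 21 tested members were called higher and 0 lower (9 and 0 under every scaling, median 1.15). Hspa1b, an inducible Hsp70, was at 6.63, 3.8 and 3.26 TPM in control muscle and 37, 19.8 and 28.4 TPM on D1 (log2 difference 2.41, SE 0.30, adjusted p = 0.00137). Hspa5, the chaperone of the endoplasmic reticulum, was at 76.3, 73.1 and 60.2 TPM in control muscle and 297, 517 and 274 TPM on D1 (log2 difference 2.31, SE 0.25, adjusted p = 0.00109). Hspb1, a small heat shock protein of muscle, was at 333, 281 and 265 TPM in control muscle and 1443, 1019.7 and 1729.7 TPM on D1 (log2 difference 2.22, SE 0.23, adjusted p = 0.00101). These rose in all 3 D1 libraries, and the chaperone list had medians in the 3 libraries of 1.06, 1.08 and 1.20. Hspb6, a small heat shock protein (673, 437 and 803 TPM in control muscle and 639, 379 and 505 TPM on D1) and Bag3, a co-chaperone (74.3, 52.2 and 77.9 TPM in control muscle and 80.3, 70.7 and 73 TPM on D1), were not called (adjusted p = 0.343 and 0.506). Their log2 differences were -0.32 and 0.15 as deposited and -1.11 and -0.63 under median-of-ratios scaling. The heat shock element GAANNTTC, which reads the same on both strands, lay in 6 of 12 promoters of called members (50%, of 18 called) and in 7.73% of all, with the first match 104 bases before the start of Hspa1b and 117 bases before that of Hspb1, in capitals in these stretches of promoters of 2 genes that rose.
Hspa1b chr17:34959290-34959387 (minus strand): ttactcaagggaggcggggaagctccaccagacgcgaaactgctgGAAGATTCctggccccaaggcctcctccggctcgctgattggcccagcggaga
Hspb1 chr5:135887757-135887874 (plus strand): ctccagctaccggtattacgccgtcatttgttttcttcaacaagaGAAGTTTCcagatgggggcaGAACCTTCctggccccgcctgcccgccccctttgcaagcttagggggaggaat
Of genes of the amino acid and unfolded protein responses, which the factor Atf4 and the endoplasmic reticulum sensors induce, 17 of 21 tested members were called higher and 1 lower (10 and 1 under every scaling, median 1.53, 1 tested through D1 libraries only). Psat1, a serine synthesis enzyme, was at 2.16, 2.43 and 2.44 TPM in control muscle and 34.5, 47.1 and 16.4 TPM on D1 (log2 difference 3.21, SE 0.35, adjusted p = 0.00108). Sdf2l1, a protein of the endoplasmic reticulum, was at 6.6, 7.11 and 5.73 TPM in control muscle and 83.6, 119 and 54.8 TPM on D1 (log2 difference 3.47, SE 0.27, adjusted p = 0.000349). Slc7a5, a transporter of large neutral amino acids, was at 1.44, 1.28 and 1.64 TPM in control muscle and 14.9, 25.5 and 7.99 TPM on D1 (log2 difference 2.67, SE 0.36, adjusted p = 0.00165). These 3 rose, but Chac1, a glutathione-degrading target of the same factor, fell from 45.8, 46.3 and 38.4 TPM to 14.1, 3.01 and 2.69 TPM (log2 difference -2.87, SE 0.48, adjusted p = 0.00271). Nr4a1 was called when D1 replicate 3 was left out (adjusted p = 0.0111).

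Metallothioneins, small cysteine-rich proteins that bind zinc and copper, rose in all D1 libraries. Mt2 (chr8:94172664-94173568, plus strand) was at 68.7, 39.1 and 42.8 TPM in control muscle and 2633, 3617 and 3448 TPM on D1 (log2 difference 6.01, SE 0.25, adjusted p = 1.43e-05). Its neighbour Mt1 (chr8:94179082-94180327, plus strand) was at 87.7, 61.4 and 60.8 TPM in control muscle and 1868, 2588 and 2576 TPM on D1 (log2 difference 5.05, SE 0.22, adjusted p = 1.72e-05), and Mt3 (chr8:94152607-94154146, plus strand) at 10.6, 8.14 and 8.32 TPM in control muscle and 254, 518 and 225 TPM on D1 (log2 difference 4.96, SE 0.30, adjusted p = 8.1e-05). All 3 rose with no overlap between groups. In the list of metallothionein, haem and iron genes, 17 of 19 tested members were called higher and 2 lower (12 and 2 under every scaling, median 1.58). The members that fell were the transferrin receptor Tfrc (36.1, 30.5 and 52.4 TPM in control muscle and 19.1, 28.6 and 26.9 TPM on D1, log2 difference -0.64, adjusted p = 0.0487) and the iron exporter Slc40a1 (10, 7.35 and 9.83 TPM in control muscle and 6.08, 4.28 and 4.18 TPM on D1, log2 difference -0.79, adjusted p = 0.0162). The metal response element, searched as TGCACNC or TGCGCNC on both strands, lay in 6 of 15 promoters of called members (40%, of 19 called) and in 23.8% of all promoters, so the motif is common. It begins 223 bases before the start of Mt2 and 23 before that of Mt1, in capitals here.
Mt2 chr8:94172368-94172446 (plus strand): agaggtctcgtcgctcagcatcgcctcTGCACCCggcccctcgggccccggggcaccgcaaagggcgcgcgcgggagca
Mt1 chr8:94179021-94179088 (plus strand): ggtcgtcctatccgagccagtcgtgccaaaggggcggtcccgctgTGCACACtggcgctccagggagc
Genes that low oxygen induces in many cells did not move as one, and 8 of 19 tested members were called higher and 3 lower (5 and 3 under every scaling, median 0.48, 1 tested through D1 libraries only), and their median was -0.29 under median-of-ratios scaling. Hif1a, the oxygen-regulated subunit of the hypoxia-inducible factor, was at 3.61, 2.95 and 4.58 TPM in control muscle and 32, 41 and 10.8 TPM on D1 (log2 difference 2.44, SE 0.44, adjusted p = 0.00315), and it rose. Hk3 and Slc2a1, a hexokinase of leukocytes and a glucose transporter, rose too (17.1, 28.1 and 4.98 and 21.8, 26.6 and 11 TPM on D1). Ldha, lactate dehydrogenase A, was at 2845, 2456 and 2431 TPM in control muscle and 1922, 1825 and 2428 TPM on D1 and the lactate exporter Slc16a3 at 272, 241 and 329 TPM in control muscle and 157, 158 and 327 TPM on D1, and neither was called (adjusted p = 0.201 and 0.191). Tfrc was not called without control replicate 1 or 3 or D1 replicate 1 (adjusted p = 0.0932 to 0.188). Slc40a1 was not called without control replicate 1 or 3 (adjusted p = 0.069 to 0.073). Slc16a3 was called when D1 replicate 3 was left out (adjusted p = 0.00148).

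Genes of the fast and slow sarcomere were lower or not called, and none was called higher, with large spread between the D1 libraries. Of fast-fibre genes, 0 of 16 tested members were called higher and 7 lower (0 and 3 under every scaling, median -0.93), and of slow-fibre genes, 0 of 13 tested members were called higher and 6 lower (0 and 3 under every scaling, median -2.5). Myh2, the myosin of oxidative fast fibres (chr11:67171027-67197517, plus strand), was at 428, 127 and 506 TPM in control muscle and 187, 36.3 and 4.85 TPM on D1 (log2 difference -3.14, SE 1.10, adjusted p = 0.0359). Casq1, the calcium store protein of fast fibres, was at 2892, 2481 and 2624 TPM in control muscle and 995, 847 and 1936 TPM on D1 (log2 difference -1.18, SE 0.31, adjusted p = 0.0127). Mylk2, the kinase of myosin light chain, was at 369.5, 346 and 382 TPM in control muscle and 146, 135 and 219.8 TPM on D1 (log2 difference -1.16, SE 0.21, adjusted p = 0.00323). These 3 fell, while Mylpf, the fast regulatory light chain (30738, 39072 and 27444 TPM in control muscle and 18706, 17048 and 30002 TPM on D1, adjusted p = 0.19), and Tnnt3, fast troponin T (34066, 34753 and 32834 TPM in control muscle and 15429, 13463 and 31998 TPM on D1, adjusted p = 0.1), were not called. The summed level of fast-fibre genes was below the control range in D1 replicates 1 and 2 (106560.0 and 94777 TPM) and close to it in D1 replicate 3 (197220.0 TPM, against 198320.0 to 224380.0 TPM in control muscle). The slow-fibre genes showed another order of the D1 libraries. Myh7, the slow myosin (chr14:54970684-54994626, minus strand), was at 135, 108 and 329.7 TPM in control muscle and 153, 1.29 and 0.33 TPM on D1, and Myl2, the slow regulatory light chain, at 374, 332 and 854 TPM in control muscle and 242, 12.4 and 1.44 TPM on D1. For Myh7 the D1 value of replicate 1 lay inside the control range, and replicates 2 and 3 were below 2 TPM. Myl2 fell (log2 difference -4.57, SE 1.38, adjusted p = 0.0205), whereas Myh7 was called as deposited only (log2 difference -4.45, SE 1.54, adjusted p = 0.0346), and so was Myl3 (363, 305 and 985 TPM in control muscle and 408, 15 and 2.37 TPM on D1, adjusted p = 0.0385). Tnnc1, slow troponin C, fell, from 190.0, 163 and 469 TPM to 218, 5.59 and 3.68 TPM (log2 difference -3.7, SE 1.28, adjusted p = 0.0342). The controls themselves differed in slow-fibre content, with summed slow-fibre levels of 2618, 1874 and 4919 TPM, against 2747, 897.7 and 349.3 TPM on D1 (exact permutation test p = 0.3, two-sided), and the part of fibre type content in these results was not tested. Tpm3 (134, 127 and 303 TPM in control muscle and 425, 376 and 101 TPM on D1) and Mybpc1 (453, 206 and 495 TPM in control muscle and 316, 181 and 47.5 TPM on D1), further slow-fibre genes, were not called (adjusted p = 0.401 and 0.0932). Myh2 was not called without control replicate 1 or 3 or D1 replicate 2 (adjusted p = 0.072 to 0.0954). Myh7 was not called without control replicate 1, 2 or 3 or D1 replicate 2 (adjusted p = 0.0678 to 0.108). Myl2 was not called without control replicate 2 or 3 or D1 replicate 2 (adjusted p = 0.057 to 0.0592). Myl3 was not called without control replicate 1, 2 or 3 or D1 replicate 2 (adjusted p = 0.0711 to 0.103). Tnnc1 was not called without control replicate 1, 2 or 3 or D1 replicate 2 (adjusted p = 0.065 to 0.107). Mylpf, Tnnt3 and Tpm3 were called when D1 replicate 3 was left out (adjusted p = 0.0167, 0.00109 and 0.00234). Mybpc1 was called when D1 replicate 1 was left out (adjusted p = 0.0349).

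**Figure D4:**
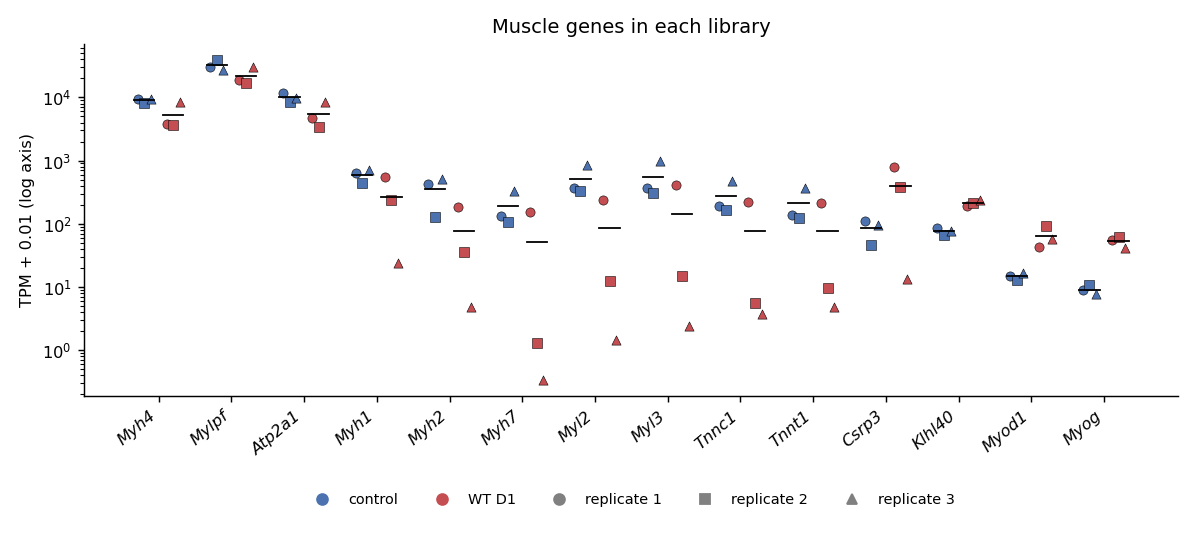
Level of 14 contractile and myogenic genes (x axis) in TPM + 0.01 on a log axis (y axis), control libraries in blue, D1 libraries in red, replicates 1, 2 and 3 as circles, squares and triangles, black bars for group means. Of the fast-fibre genes, Mylpf spans 17048 to 30002 TPM on D1 against 27444 to 39072 TPM in control muscle, slow-fibre genes such as Myh7 span 0.33 to 153 TPM on D1, and Myod1 and Myog are above the control values in all 3 D1 libraries. Myh4, Atp2a1, Myh1, Tnnt1 and Csrp3 were added after their values were seen.

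Among structural proteins of the sarcomere, 3 of 21 tested members were called higher and 5 lower (1 and 5 under every scaling, median -0.43). Klhl40, a stabilizer of thin filament proteins, rose from 86.3, 65.2 and 77.8 TPM to 191, 217 and 234 TPM (log2 difference 1.48, SE 0.17, adjusted p = 0.00123), and Xirp1, which is recruited to damaged filaments, was called higher as deposited only (61.6, 30 and 42.1 TPM in control muscle and 96.2, 137 and 77.5 TPM on D1, adjusted p = 0.00873). Myot, a protein of the Z disc, fell by 0.91 on the log2 scale (554, 433 and 658 TPM in control muscle and 306, 208 and 375 TPM on D1, adjusted p = 0.0163). Muscle creatine kinase, Ckm, was not called, at 19400.0, 19295 and 16968 TPM in control muscle and 12203, 9764 and 20988 TPM on D1 (log2 difference -0.45, SE 0.36, adjusted p = 0.3). Calcium handling genes couple excitation to contraction, and 2 of 22 tested members were called higher and 9 lower (1 and 8 under every scaling, median -0.51). Mrln, the micropeptide that restrains the calcium pump, was at 178, 197 and 149 TPM in control muscle and 25.8, 20.9 and 88.3 TPM on D1 (log2 difference -2.22, SE 0.47, adjusted p = 0.00524). Hrc, a calcium-binding protein of the sarcoplasmic reticulum, was at 454, 359 and 442 TPM in control muscle and 191, 128 and 295 TPM on D1 (log2 difference -1.1, SE 0.29, adjusted p = 0.0119). Both fell. Bin1, which shapes the transverse tubules, was called higher as deposited only, at 630.3, 532 and 586 TPM in control muscle and 779, 781 and 1095 TPM on D1 (log2 difference 0.59, adjusted p = 0.0323), and Jsrp1 (606, 582 and 557 TPM in control muscle and 443, 358 and 564 TPM on D1) was not called. At the neuromuscular junction the subunits of the acetylcholine receptor moved in opposite directions. Chrnd, the delta subunit, rose from 1.19, 0.69 and 1.33 TPM to 7.98, 9.15 and 3.32 TPM (log2 difference 1.84, SE 0.34, adjusted p = 0.00344), and Chrne, the adult epsilon subunit, fell from 12.5, 12.2 and 11.3 TPM to 3.02, 1.87 and 6.56 TPM (log2 difference -1.55, SE 0.34, adjusted p = 0.00581). Over this list, 7 of 15 tested members were called higher and 3 lower (1 and 3 under every scaling, median 0.55), and the median was -0.21 under median-of-ratios scaling. Ache, acetylcholinesterase, was not called (24.2, 16.5 and 20.2 TPM in control muscle and 15.4, 10.7 and 14.6 TPM on D1, adjusted p = 0.0545). Its log2 difference was -0.55 as deposited and -1.29 under both median-of-ratios scaling and quantile normalization. That of Jsrp1 was -0.38 as deposited, -1.17 under median-of-ratios scaling and -0.76 under quantile normalization. Myot was not called without control replicate 1 or 3 (adjusted p = 0.0536 to 0.0658). Bin1 was not called without control replicate 1, 2 or 3 or D1 replicate 3 (adjusted p = 0.0523 to 0.115). Ckm, Jsrp1 and Ache were called when D1 replicate 3 was left out (adjusted p = 0.0175, 0.0174 and 0.0285).

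Among genes that reseal the plasma membrane, 15 of 20 tested members were called higher and 1 lower (6 and 1 under every scaling, median 1.19). Beside this, 55.4% of all tested genes were called higher, 17.8% under every scaling, with a median of 0.66. The list median was 0.41 under median-of-ratios scaling. The annexins bind membranes in the presence of calcium, and Anxa2 was at 102, 87.3 and 91.2 TPM in control muscle and 524, 890.3 and 274 TPM on D1 (log2 difference 2.42, SE 0.37, adjusted p = 0.00218). Anxa4 was at 11.3, 9.23 and 11.8 TPM in control muscle and 78.6, 98.4 and 52.5 TPM on D1 (log2 difference 2.68, SE 0.24, adjusted p = 0.000639). Myof, a relative of dysferlin, was at 3.97, 3.25 and 4.92 TPM in control muscle and 26.4, 45.7 and 12.4 TPM on D1 (log2 difference 2.37, SE 0.41, adjusted p = 0.00291). These 3 rose, as did S100a10, the partner of annexin A2 (341, 588 and 198 TPM on D1, from 86.2, 95 and 78.9 TPM). Capn3, the muscle calpain, fell from 81.9, 72.6 and 82.1 TPM to 41.5, 29.7 and 58.6 TPM (log2 difference -0.90, SE 0.24, adjusted p = 0.0126), and Sgca, alpha-sarcoglycan, was not called (257, 176 and 254 TPM in control muscle and 164, 125 and 225 TPM on D1). Among satellite cell and myogenic genes, 15 of 21 tested members were called higher and 0 lower (5 and 0 under every scaling, median 1.01). The median of this list was 0.26 under median-of-ratios scaling, and its share called under every scaling was near that of all tested genes (17.8%). Myod1, the factor that commits satellite cells to the muscle lineage, was at 14.9, 12.8 and 16.6 TPM in control muscle and 43.1, 93.3 and 57.8 TPM on D1 (log2 difference 2.0, SE 0.27, adjusted p = 0.0017). Myog, which acts at differentiation, was at 8.82, 10.8 and 7.65 TPM in control muscle and 54.8, 61.5 and 41.1 TPM on D1 (log2 difference 2.4, SE 0.21, adjusted p = 0.000615). Id2, an inhibitor of such factors, was at 4.37, 3.76 and 4.2 TPM in control muscle and 32.6, 59 and 12.1 TPM on D1 (log2 difference 2.55, SE 0.47, adjusted p = 0.00356). All 3 rose with no overlap between groups. Pax7, the marker of satellite cells, was at 0.52, 0.30 and 0.52 TPM in control muscle and 0.69, 0.97 and 0.75 TPM on D1 and was not tested. Genes of embryonic and neonatal fibres gave 3 higher calls among 7 tested, all as deposited only, and embryonic myosin, Myh3, was at 0.70, 0.41 and 0.86 TPM in control muscle and 0.37, 0.31 and 0.16 TPM on D1, below the filter. In the list of atrophy genes, 5 of 19 tested members were called higher and 3 lower (2 and 3 under every scaling, median 0.029), and its median was -0.75 under median-of-ratios scaling. Ctsl, a lysosomal protease, was at 123, 103 and 113 TPM in control muscle and 334, 488 and 319.7 TPM on D1 (log2 difference 1.72, SE 0.20, adjusted p = 0.00125). Cebpd, a stress-induced transcription factor, was at 5.44, 5.67 and 5.81 TPM in control muscle and 24.1, 27.5 and 16.4 TPM on D1 (log2 difference 1.8, SE 0.22, adjusted p = 0.00137). Both rose, whereas the ubiquitin ligase components Fbxo40 (148, 108 and 152 TPM in control muscle and 54.7, 46 and 84.8 TPM on D1) and Asb2 (365, 344 and 452 TPM in control muscle and 155, 105 and 265 TPM on D1) fell by 1.16 and 1.24 on the log2 scale (adjusted p = 0.00573 and 0.0104). Sgca was called when D1 replicate 3 was left out (adjusted p = 0.0131).

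Genes of mitochondrial oxidation were lower on D1. In the tricarboxylic acid cycle, 0 of 20 tested members were called higher and 14 lower (0 and 14 under every scaling, median -0.70), and in fatty acid oxidation, 0 of 25 tested members were called higher and 17 lower (0 and 17 under every scaling, median -0.66). Over all tested genes 5.64% were called lower, 5.51% under every scaling, so the second count adds little to the first. Pdk4, the kinase that turns off pyruvate entry in fasting, was at 539, 371 and 444 TPM in control muscle and 157, 130.2 and 84.5 TPM on D1 (log2 difference -1.88, SE 0.25, adjusted p = 0.00162). Cpt1b, the muscle enzyme that admits fatty acids to mitochondria, was at 146, 104 and 142 TPM in control muscle and 56.5, 30 and 65.2 TPM on D1 (log2 difference -1.41, SE 0.29, adjusted p = 0.00499). Fabp3, a fatty acid carrier of oxidative fibres, was at 1149, 809 and 1158 TPM in control muscle and 587, 179.7 and 203 TPM on D1 (log2 difference -1.88, SE 0.42, adjusted p = 0.00649). The 3 genes fell, with no overlap between groups. Cd36, the fatty acid translocase, was not called, at 98.9, 80.9 and 126 TPM in control muscle and 114, 113 and 59.2 TPM on D1 (log2 difference -0.13, SE 0.28, adjusted p = 0.696). Of nuclear genes listed under complex I, 0 of 36 tested members were called higher and 20 lower (0 and 20 under every scaling, median -0.49). Ndufs1, the largest subunit of complex I, was at 190.0, 139 and 194 TPM in control muscle and 101, 68.8 and 98.7 TPM on D1 (log2 difference -0.96, SE 0.21, adjusted p = 0.00622). Ndufa4, with the highest level among the listed genes not called, was at 1126, 1153 and 1081 TPM in control muscle and 933, 717 and 875 TPM on D1 (adjusted p = 0.074). Its log2 difference was -0.42 as deposited, -1.21 under median-of-ratios scaling and -0.77 under quantile normalization. Of complexes II to V, 3 of 42 tested members were called higher and 24 lower (1 and 22 under every scaling, median -0.55). The muscle isoform gene Cox7a1 fell from 984, 973 and 976 TPM to 749.5, 323 and 457 TPM (log2 difference -1.02, SE 0.29, adjusted p = 0.0159), and Cox6a1, the widely expressed isoform of its subunit, rose from 105, 91.1 and 104 TPM to 337, 529.7 and 197 TPM (log2 difference 1.71, SE 0.32, adjusted p = 0.00369). Its muscle counterpart Cox6a2, chosen after its values were seen, fell from 1781, 1464 and 1720.0 TPM to 1047, 622 and 1079 TPM (log2 difference -0.89, SE 0.25, adjusted p = 0.0163). Of 13 genes encoded in mitochondria 5 were called lower and 1 under every scaling, mt-Co3, with 1478, 2968 and 1787 TPM in control muscle and 1024, 744 and 137 TPM on D1 (log2 difference -2.07, SE 0.67, adjusted p = 0.0274). In glycolysis and glycogen metabolism, 0 of 25 tested members were called higher and 12 lower (0 and 9 under every scaling, median -0.78). Gpd1, which links glycolysis to glycerol phosphate, was at 403, 334 and 407 TPM in control muscle and 122, 111 and 229.5 TPM on D1 (log2 difference -1.37, SE 0.27, adjusted p = 0.00451). Ldhb, the lactate dehydrogenase of oxidative fibres, was at 287, 125 and 293 TPM in control muscle and 166, 18.5 and 7.65 TPM on D1 (log2 difference -2.86, SE 0.93, adjusted p = 0.0278), and both fell. Aldoa (21673, 19136 and 19993 TPM in control muscle and 11259, 8948 and 19262 TPM on D1) and Gapdh (18288, 14997 and 17300.0 TPM in control muscle and 10946, 9327 and 14302 TPM on D1), the most abundant enzymes of the list, were not called (adjusted p = 0.121 and 0.132). Of regulators of oxidative metabolism, 2 of 16 tested members were called higher and 5 lower (0 and 5 under every scaling, median -0.39). Ppargc1a, a coactivator of mitochondrial biogenesis, was at 17.5, 11.5 and 14.5 TPM in control muscle and 9.13, 3.31 and 3.95 TPM on D1 (log2 difference -1.35, SE 0.33, adjusted p = 0.00966). Ppara, the receptor that induces fatty acid oxidation, was at 9.48, 4.32 and 7.94 TPM in control muscle and 2.59, 0.59 and 0.84 TPM on D1 (log2 difference -1.86, SE 0.37, adjusted p = 0.00454). Perm1, a muscle regulator of the same genes, was at 88.4, 53.6 and 87.4 TPM in control muscle and 19.2, 6.63 and 14.3 TPM on D1 (log2 difference -2.5, SE 0.36, adjusted p = 0.00192). The 3 fell with no overlap between groups. Cox7a1 was not called without control replicate 2 (adjusted p = 0.055). Cox6a2 was not called without control replicate 1 or 3 (adjusted p = 0.0584 to 0.0645). mt-Co3 was not called without control replicate 2 or 3 (adjusted p = 0.0547 to 0.106). Ldhb was not called without control replicate 1, 2 or 3 or D1 replicate 2 (adjusted p = 0.0517 to 0.0804). Aldoa and Gapdh were called when D1 replicate 3 was left out (adjusted p = 0.00332 and 0.0199).

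**Figure D5:**
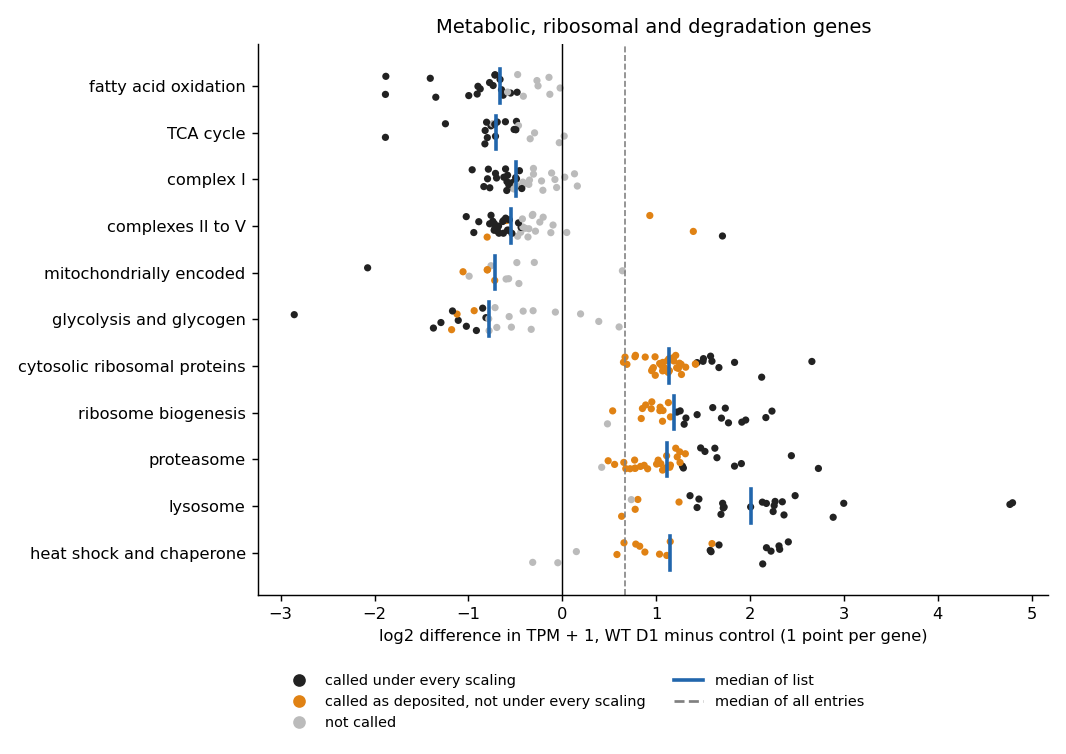
Log2 difference of TPM + 1 between D1 and control muscle (x axis) for every tested member of 11 metabolic, protein synthesis and stress lists (y axis), 1 point per gene, coloured by whether the call held under every scaling, was made as deposited only or was not made. The tricarboxylic acid cycle, fatty acid oxidation and complex I lie almost wholly below 0, and ribosomal proteins, proteasome and lysosome above 0. The median of all tested genes was 0.66, so values above 0 do not set a list apart. Ribosomal proteins and proteasome had medians of 0.35 and 0.32 under median-of-ratios scaling, and lysosome 1.27.

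Matrix and stromal genes split by class. In matrix proteases and their inhibitors, 18 of 23 tested members were called higher and 1 lower (13 and 1 under every scaling, median 1.74, 4 tested through D1 libraries only). Timp1, an inhibitor of matrix metalloproteinases, was at 3.6, 2.8 and 4.38 TPM in control muscle and 242, 345 and 64.1 TPM on D1 (log2 difference 5.28, SE 0.54, adjusted p = 0.000988). Plaur, the receptor of urokinase, was at 0.56, 1.27 and 1.1 TPM in control muscle and 46.7, 75.5 and 17.3 TPM on D1 (log2 difference 4.38, SE 0.47, adjusted p = 0.00105). Adam8, a protease of leukocytes, was at 0.64, 1.35 and 0.52 TPM in control muscle and 65.2, 114 and 18.1 TPM on D1 (log2 difference 4.87, SE 0.57, adjusted p = 0.00128). They rose, whereas Timp2 (86.4, 58.6 and 85.2 TPM in control muscle and 81.9, 97.2 and 67.1 TPM on D1) and Timp3 (33.9, 30.3 and 37 TPM in control muscle and 38.8, 34.7 and 43.7 TPM on D1) were not called (adjusted p = 0.692 and 0.306). Of provisional matrix genes, 16 of 21 tested members were called higher and 0 lower (8 and 0 under every scaling, median 1.91, 1 tested through D1 libraries only). Lgals3, galectin-3, was at 7.75, 11 and 7.6 TPM in control muscle and 579.9, 897 and 189 TPM on D1 (log2 difference 5.58, SE 0.49, adjusted p = 0.000615). Thbs1, thrombospondin-1, was at 11.9, 7.29 and 12.2 TPM in control muscle and 167, 177 and 26.3 TPM on D1 (log2 difference 3.06, SE 0.65, adjusted p = 0.00544), and both rose. Sparc was at 717, 474 and 706 TPM in control muscle and 1016, 1483 and 725 TPM on D1 and was not called (log2 difference 0.73, SE 0.29, adjusted p = 0.0582). Of collagens, 7 of 16 tested members were called higher and 0 lower (2 and 0 under every scaling, median 0.61), and the median of the list was -0.14 under median-of-ratios scaling. Col1a1 was at 231, 115 and 231 TPM in control muscle and 252, 466 and 163 TPM on D1 and Col1a2 at 321, 163 and 305 TPM in control muscle and 321, 587 and 213 TPM on D1, with neither called (adjusted p = 0.264 and 0.341), while Col6a3 rose (45.6, 34.4 and 41.1 TPM in control muscle and 79.1, 126 and 83.7 TPM on D1, adjusted p = 0.00315). Fibro-adipogenic progenitors are the stromal cells of muscle, and 8 of 20 tested members were called higher and 1 lower (2 and 1 under every scaling, median 0.40, 1 tested through D1 libraries only), with a median of -0.32 under median-of-ratios scaling. Has1, which makes hyaluronan, rose from 0.33, 0.13 and 0.39 TPM to 12, 13.7 and 1.88 TPM (log2 difference 2.68, SE 0.56, adjusted p = 0.00507), and Pdgfra, their surface marker, was called as deposited only (11.7, 7.19 and 10.2 TPM in control muscle and 19.9, 32.5 and 12.2 TPM on D1, adjusted p = 0.0319). Dcn, decorin, was not called, at 443, 418 and 476 TPM in control muscle and 351, 484 and 404 TPM on D1 (log2 difference -0.12, SE 0.18, adjusted p = 0.574). Of growth factors 11 of 21 tested (2 through D1 libraries only) were called higher as deposited and 1 under every scaling, Tgfb1, with 8.95, 7.86 and 11.3 TPM in control muscle and 43.6, 71.7 and 20.3 TPM on D1 (log2 difference 2.0, SE 0.40, adjusted p = 0.00454), and the list median was -0.03 under quantile normalization. Endothelial genes gave 5 higher and 1 lower calls of 19 tested (1 and 1 under every scaling) and pericyte genes 4 and 0 of 12 (0 and 0 under every scaling), with list medians of 0.32 and 0.34 as deposited and -0.46 and -0.39 under median-of-ratios scaling. Over all tested genes 55.4% were called higher, 17.8% under every scaling. Selp, the P-selectin on which leukocytes roll, rose from 0.79, 1.29 and 1.05 TPM to 10.6, 13.2 and 3.18 TPM (log2 difference 2.12, SE 0.43, adjusted p = 0.0046), and Kdr, a receptor of vascular endothelial growth factor, fell (14.7, 10.4 and 13.7 TPM in control muscle and 8.7, 9.71 and 5.72 TPM on D1, log2 difference -0.64, adjusted p = 0.0455). The summed levels of adipocyte and nerve genes were lower in D1 replicates 1 and 2 (1588 and 1623 TPM, and 162.7 and 178.1 TPM) than in replicate 3 (2136 and 404.4 TPM), against 2363 to 2437 and 418.2 to 617.7 TPM in control muscle. Of adipocyte genes, 1 of 18 tested members were called higher and 6 lower (1 and 6 under every scaling, median -0.44), and Adipoq, adiponectin, was at 23.1, 32.4 and 30.3 TPM in control muscle and 0.8, 1.95 and 16.8 TPM on D1 (log2 difference -2.68, SE 0.72, adjusted p = 0.0132). Of Schwann cell genes, 0 of 11 tested members were called higher and 5 lower (0 and 5 under every scaling, median -0.56). Adipoq fell, and the amount of fat and nerve taken with each piece of muscle was not tested. Pdgfra was not called without control replicate 1, 2 or 3 or D1 replicate 1 or 2 (adjusted p = 0.0501 to 0.119). Kdr was not called without control replicate 1, 2 or 3 or D1 replicate 1 or 3 (adjusted p = 0.0543 to 0.158). Adipoq was not called without control replicate 2 (adjusted p = 0.0539). Sparc, Col1a1 and Col1a2 were called when D1 replicate 3 was left out (adjusted p = 0.00201, 0.016 and 0.0271).

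In the cell cycle list, 26 of 28 tested members were called higher and 0 lower (24 and 0 under every scaling, median 2.55, 14 tested through D1 libraries only). Top2a, the topoisomerase of dividing cells, was at 0.23, 0.46 and 0.79 TPM in control muscle and 16.8, 34.7 and 7.67 TPM on D1 (log2 difference 3.58, SE 0.46, adjusted p = 0.00146). Mcm5, a subunit of the replicative helicase, was at 0.92, 0.76 and 0.61 TPM in control muscle and 17.4, 34 and 9.62 TPM on D1 (log2 difference 3.43, SE 0.39, adjusted p = 0.00121). Both rose, with D1 replicate 2 highest. Cdk1, the kinase of mitotic entry, was at 0.47, 0.55 and 0.64 TPM in control muscle and 34.5, 77.3 and 16.8 TPM on D1 (log2 difference 4.56, SE 0.46, adjusted p = 0.000988) and is another of those 9 entries. Aurka (12.4, 10.7 and 11.9 TPM in control muscle and 11.4, 17.7 and 11 TPM on D1) and Rrm1 (13.2, 12.7 and 11.9 TPM in control muscle and 16.6, 27.9 and 13.4 TPM on D1) were not called (adjusted p = 0.552 and 0.118). Of cell cycle inhibitors and p53 targets, 12 of 18 tested members were called higher and 0 lower (7 and 0 under every scaling, median 1.0, 1 tested through D1 libraries only). Cdkn1a, the p21 inhibitor of cyclin-dependent kinases, was at 17, 19.4 and 24.2 TPM in control muscle and 89.2, 195 and 86.8 TPM on D1 (log2 difference 2.47, SE 0.31, adjusted p = 0.00144). Gadd45a, a DNA damage-inducible gene, was at 18.2, 24.4 and 16.9 TPM in control muscle and 70.5, 102 and 85.6 TPM on D1 (log2 difference 2.06, SE 0.21, adjusted p = 0.000988) and both rose. Ribosomal proteins were called higher as deposited in all 42 tested genes and under every scaling in 9, with a list median of 1.14 as deposited and 0.35 under median-of-ratios scaling. Under every scaling the annotated ribosome pathway had 13.8% of its genes called higher (18 of 130), below the 17.8% of all tested genes, and nothing is read from the ribosomal protein list. Rpl3 was at 76.8, 85.2 and 72 TPM in control muscle and 504, 823 and 295 TPM on D1 (log2 difference 2.66, SE 0.33, adjusted p = 0.00137) and rose, and its paralogue Rpl3l is known as specific to striated muscle. For ribosome biogenesis, 25 of 26 tested members were called higher and 0 lower (13 and 0 under every scaling, median 1.19), among them the nucleolar methyltransferase gene Fbl at 23.1, 22.4 and 23.7 TPM in control muscle and 108, 175 and 74.2 TPM on D1 (log2 difference 2.23, SE 0.28, adjusted p = 0.00142). Of proteasome subunits, 34 of 35 tested members were called higher and 0 lower (10 and 0 under every scaling, median 1.11). Among these were the inducible immune subunits, Psmb8 with 12.6, 12.6 and 9.56 TPM in control muscle and 86, 138 and 45.9 TPM on D1 (log2 difference 2.73, SE 0.35, adjusted p = 0.0015) and Psmb9 with 3.5, 3.49 and 2.4 TPM in control muscle and 21, 32.2 and 14 TPM on D1 (log2 difference 2.44, SE 0.30, adjusted p = 0.00137). Of lysosomal genes, 24 of 25 tested members were called higher and 0 lower (20 and 0 under every scaling, median 2.01). Cd68, a lysosomal protein of macrophages, was at 8.86, 8.16 and 8.91 TPM in control muscle and 303, 481 and 129.8 TPM on D1 (log2 difference 4.8, SE 0.41, adjusted p = 0.000526). Ctsz, a cathepsin, was at 34.5, 34.7 and 35 TPM in control muscle and 307, 448 and 132 TPM on D1 (log2 difference 2.88, SE 0.38, adjusted p = 0.00154). Ctsk, the cathepsin of osteoclasts, was at 11.7, 9.61 and 12.8 TPM in control muscle and 21, 28.2 and 12.3 TPM on D1 and not called (log2 difference 0.73, SE 0.29, adjusted p = 0.0538). Of circadian genes, 9 of 18 tested members were called higher and 2 lower (1 and 2 under every scaling, median 0.53), with a median of -0.09 under median-of-ratios scaling. Nr1d1, a repressor of the clock, fell from 100.3, 79.9 and 85.1 TPM to 31, 47.9 and 67.6 TPM (log2 difference -0.91, SE 0.27, adjusted p = 0.0192), and Bhlhe40, another, rose from 29.5, 22.6 and 31.2 TPM to 62.9, 74.5 and 53.5 TPM (log2 difference 1.17, SE 0.19, adjusted p = 0.00264). The time of day of collection is not given in the sources used here. Nr1d1 was not called without control replicate 1 or D1 replicate 1 (adjusted p = 0.0508 to 0.0702). Rrm1 and Ctsk were called when D1 replicate 3 was left out (adjusted p = 0.0114 and 0.000674).

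Marker lists of blood and of tissues outside muscle were summed in each library. The sums of the acinar pancreas, liver and epidermis lists did not overlap between groups, and the liver sum was lower on D1 and the pancreas and epidermis sums higher. The exact permutation test gave p = 0.1 for each (two-sided), the smallest that 3 against 3 allows. The sums of most other lists gave the same p. Haemoglobin and platelet genes summed to 1670, 2008 and 1462 TPM in control muscle and 2344, 1526 and 2587 TPM on D1 (exact permutation test p = 0.3, two-sided), and Hbb-bs, a beta-globin, was at 571, 724 and 478 TPM in control muscle and 819, 357 and 893 TPM on D1 and was not called. The platelet chemokine genes Ppbp (0.49, 0.43 and 0.2 TPM in control muscle and 13.2, 33.4 and 6.01 TPM on D1) and Pf4 (29.4, 29.5 and 21.4 TPM in control muscle and 261, 584 and 142 TPM on D1) rose, with log2 differences of 3.46 and 3.35 (SE 0.50 and 0.44, adjusted p = 0.0019 and 0.00154). Genes of acinar pancreas summed to 0.43, 0.42 and 0.53 TPM in control muscle and to 3.88, 5.85 and 63.5 TPM on D1, and in D1 replicate 3 the digestive protease gene Ctrb1 was at 15.7 TPM, against 0 TPM in replicate 1 and 0.08 TPM in replicate 2. In control muscle 15 of the 16 pancreas genes were at 0 in every library, and the sum was that of Cela1 alone. Cela1 was at 3.75, 5.25 and 5.87 TPM on D1, most of the sum in D1 replicates 1 and 2. Liver genes summed to 38.7, 84.9 and 39 TPM in control muscle and 1.95, 3.73 and 38 TPM on D1, with albumin, Alb, at 10.6 TPM in control replicate 2 and at most 0.98 TPM in any other library. Cyp2e1, a cytochrome of liver and fat, was at 37.9, 53.5 and 37.8 TPM in control muscle and 0.69, 0.58 and 31.3 TPM on D1 (log2 difference -3.3, SE 1.01, adjusted p = 0.0219). It fell, with the D1 value of replicate 3 well above those of replicates 1 and 2 and below every control. This gene made up most of the liver sum in every control library and in D1 replicate 3. Epidermis genes summed to 8.66, 10.2 and 9.74 TPM in control muscle and 12.8, 17 and 12.2 TPM on D1, and Dmkn, a skin protein, was at 0.5, 0.72 and 0.49 TPM in control muscle and 4.83, 8.81 and 1.98 TPM on D1 (log2 difference 1.82, SE 0.39, adjusted p = 0.00564). The part of such tissue in the results was not tested. Cyp2e1 was not called without control replicate 1 or 2 or D1 replicate 1 or 2 (adjusted p = 0.0502 to 0.0816).

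Annotated KEGG pathways of the deposited table with at least 20 tested genes, 282 in all, were counted in the same way. As deposited, the pathways with the highest share of members called higher were the proteasome (39 of 41), DNA replication (30 of 33), SNARE interactions in vesicular transport (28 of 31), IL-17 signaling (55 of 62) and cytosolic DNA-sensing (39 of 44), against 55.4% of all tested genes. Under every scaling these counts were 10, 20, 5, 33 and 24 genes, against 17.8% of all, so the proteasome and SNARE pathways stood near the background under every scaling. The pathways with the highest share called lower were the citrate cycle (17 of 28), Parkinson disease (52 of 127), oxidative phosphorylation (49 of 120), fatty acid elongation (7 of 20) and fatty acid degradation (11 of 34), against 5.64% of all. In the same 5 pathways 4, 22, 17, 7 and 9 genes were called higher. Fatty acid elongation and degradation were thus mixed as deposited, with median log2 differences of 0.12 and 0.021, against 0.66 over all tested genes. The Parkinson disease pathway and oxidative phosphorylation share respiratory chain subunits. Under every scaling the 5 counts called lower were 17, 46, 43, 7 and 11, and those called higher 0, 10, 6, 3 and 1.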

How the data were processed

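Whole muscle RNA was sequenced on an Illumina HiSeq instrument (paired-end) after library preparation with a SMARTER mRNA kit. The authors deposited TPM values per gene for these 6 libraries, on mm10 per the submitters' processing notes. The aligner and counter are not given in the sources used here, and StringTie-style entries (182 of those tested) are present. TPM hold no depth, so counting error is unknown. TPM as deposited were tested as log2(TPM + 1) with limma 3.58.1 in R 4.3.3 (empirical Bayes with a variance trend, 3 against 3, Benjamini-Hochberg adjustment over 13041 entries with at least 1 TPM in at least 3 of 6 libraries), after a test on simulated data. The scaling, pseudocount, filter, moderation, library weights, replicate block and each library were varied. Group totals were compared by exact permutation tests, whose smallest p is 0.1. A gene symbol with several entries stands for the longest. The 58 gene lists and the comparison were chosen with earlier results of these data known. Named genes are the 10 largest differences in each direction at 10 TPM or more, up to 4 called and 2 other members per list by size and by level, and the gasdermins and the genes of their pathway Il18, Il1b and Casp1, and not all of them are printed, since some named genes are not reported here. Gene positions come from GENCODE M21 (12826 tested entries matched), promoters from RefSeq (GRCm38.p6). Pathway annotation is the deposited one. The time course table, made separately, was used only for the levels given beside the leading entries.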

Additional observations from a re-analysis of the deposited data

How the results depend on the processing

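The counts of calls kept their order of size between directions, more genes higher than lower, under pseudocounts of 0.1 TPM (7291 and 740) and 5 TPM (7071 and 703), no filter (6453 and 525), a filter of 5 TPM (5192 and 589), no variance trend (7217 and 717), robust moderation (7236 and 729) and a test against a 2-fold difference (431 and 34), and under removal of the 50 most abundant (4236 and 1650) or the mitochondrial entries (6739 and 859). They were nearly equal under median-of-ratios scaling (2753 and 2794) and quantile normalization (2553 and 2673). Leaving out 1 library gave 5208 to 7960 higher and 361 to 1161 lower calls. Library quality weights, estimated by limma, gave 9037 higher and 1808 lower calls, and they were 39.7, 0.14 and 0.14 for D1 replicates 1, 2 and 3, but their estimation stopped before reaching its convergence tolerance, so nothing is read from these counts. The labels do not say whether the replicate numbers pair the samples. Deviations of same-numbered libraries from their group means correlated at 0.061, 0.041 and 0.002, and those of other pairs at -0.12 to 0.070. With 3 libraries in a group such values cannot decide whether samples were paired. With the replicate block 6247 higher and 705 lower calls were made. Gsdme, at 0.67 as deposited (adjusted p = 0.0388), lost its call with no filter (adjusted p = 0.11), at 0.10 under median-of-ratios scaling, 0.35 with the 50 most abundant and 0.63 with the mitochondrial entries removed, with the replicate block (0.67, adjusted p = 0.0574) and in the test against a 2-fold difference (0.67, adjusted p = 1), and had the opposite sign under quantile normalization (-0.068). Without 1 library its difference was 0.48 to 0.80. Over 190 other genes named here and all alternatives, 3198 of 3581 values kept their direction and call, 200 lost and 102 gained a call, and 81 changed sign, in 30 genes. With median-of-ratios scaling, the log2 differences of Ackr1, Ackr3, Aurka, Bag3, Bin1, Ccl11, Cd163, Col1a1, Col1a2, Ctsk, Fas, Hbb-bs, Igkc, Maf, Nos2, P2ry2, Rrm1, Serping1, Sparc, Srf, Timp2, Timp3, Tlr5 and Tpm3 were -0.49, -0.37, -0.58, -0.63, -0.21, -0.74, -0.15, -0.24, -0.35, -0.0085, -0.33, -0.66, -0.18, -0.62, -0.10, -0.28, -0.23, -0.61, -0.064, -0.46, -0.68, -0.57, -0.023 and -0.24. With quantile normalization, the log2 differences of Ackr1, Ackr3, Acta1, Aurka, Bag3, Ccl11, Cd163, Ckm, Ctsk, Fas, Hbb-bs, Igkc, Maf, Mylpf, Nos2, P2ry2, Rrm1, Serping1, Srf, Timp2, Timp3 and Tlr5 were -0.62, -0.38, 0.33, -0.63, -0.42, -0.68, -0.23, 0.12, -0.016, -0.47, -0.23, -0.32, -0.47, 0.065, -0.27, -0.30, -0.24, -0.28, -0.30, -0.44, -0.44 and -0.18. With 50 most abundant entries removed, the log2 differences of Ackr1, Ackr3, Aurka, Bag3, Ccl11, Col1a2, Fas, Hbb-bs, Maf, P2ry2, Serping1, Srf, Timp2 and Timp3 were -0.29, -0.12, -0.34, -0.37, -0.49, -0.077, -0.12, -0.39, -0.36, -0.027, -0.34, -0.20, -0.42 and -0.31. With library quality weights, the log2 differences of Aurka, Ccl11, Cd36 and Maf were -0.051, -0.12, 0.10 and -0.31. With mitochondrial entries removed, that of Ccl11 was -0.056. Over the libraries left out in turn, signs changed for Ackr1 (-0.025 to 0.32), Acta1 (-0.39 to 0.059), Aurka (-0.050 to 0.27), Bag3 (-0.029 to 0.26), Ccl11 (-0.061 to 0.10), Cd36 (-0.29 to 0.18), Hbb-bs (-0.11 to 0.55), Timp2 (-0.079 to 0.24), Tpsb2 (-0.19 to 0.056) and Wfdc21 (-0.48 to 0.15). List medians relative to the median of all genes stayed within 1 SD of the D1 libraries in 1005 of 1099 cases, moved more in 75 and changed sign in 19. The latter were interleukin-6 family and receptors (0.16 with pseudocount 5 TPM, 0.091 with quantile normalization, 0.15 with library quality weights and -0.13 to 0.084 with 1 library left out), neuromuscular junction (0.058 with pseudocount 5 TPM), embryonic and neonatal myofibre (0.0077 with library quality weights), collagens (0.11 with pseudocount 5 TPM, 0.14 with quantile normalization, 0.17 with library quality weights and -0.17 to 0.18 with 1 library left out), TGF-beta, activin, IGF and growth factors (-0.024 with pseudocount 5 TPM, -0.20 with filter at 5 TPM and -0.082 to 0.14 with 1 library left out), endothelial (0.056 with library quality weights), circadian clock (-0.45 to 0.12 with 1 library left out) and erythrocyte and platelet (-0.87 to 0.015 with 1 library left out). The causes were not tested. The depth of the libraries is unknown, so no counting error can be given, and genes near 1 TPM are the least precise.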
